A study of Mus musculus with 8 samples.

Results

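The genes described here are 10 neighbours of Ascl2 in the imprinted cluster on distal chromosome 7 of the mouse: H19, Igf2, Tspan32, Cd81, Tssc4, Kcnq1, Cdkn1c, Slc22a18, Phlda2 and Nap1l4. They were found by gene name, or an older alias of it, in the probe annotation of the arrays, without use of any measured value. They had 18 of the 41174 probes on the array and 10 of its 28593 gene names. The series comprises 8 Agilent mouse arrays of the two-colour kind, which measured 4 pairs of RNAs that were each hybridised on 2 arrays with the dyes swapped. In 2 pairs, intestinal cells of Lgr5-EGFP-ires-CreERT2 mice with high GFP (GFPhi) were set against cells with low GFP (GFPlo) of the same sort, each sort pooling 3 mice. In these mice GFP is driven from the Lgr5 locus, so all sorted cells carry that allele. In the other pairs, epithelial cells of the small intestine of Ah-Cre/Ascl2 floxed/floxed animals were set against those of Ah-Cre/Ascl2 floxed/wt controls, 1 pair 3 days and 1 pair 5 days after induction. The controls thus carried the Cre and a floxed allele too, although the titles call them wild type. The Ah-Cre transgene is driven by a promoter that an injected inducer switches on. Ages and the number of animals per deletion RNA are not given in the sources used here.

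Imprinted genes are read mainly from the copy inherited from 1 parent, under the control of nearby imprinting centres that are methylated on a single parental copy. The cluster has 2 such centres. One lies next to H19, a non-coding RNA, and governs the opposite parental expression of H19 and of Igf2, which encodes a growth factor of embryonic tissues. The other lies within Kcnq1 and silences neighbours such as Cdkn1c, Phlda2 and Slc22a18 on the paternal copy, and Ascl2 itself, an imprinted gene in the placenta, sits between the centres. In the intestine, Ascl2 encodes a transcription factor (basic helix-loop-helix class) of the Lgr5-positive stem cells at the crypt base, and factors of that class bind E-boxes, whose letters are CANNTG. The arrays measure the RNA of both parental copies together, so no statement on imprinting can be drawn from them.

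RefSeq's promoter table (build GRCm38.p6, 250 bases before to 50 after a gene's start) held 9 windows for 6 of the 10 members, Cd81, Slc22a18, Phlda2, Tssc4, Tspan32 and Igf2. Windows of 4 members are printed 5′ to 3′ on the gene's strand: Cd81 and Slc22a18, whose sort ratios had opposite signs, and Phlda2 and Igf2, whose ratios had opposite signs 3 days after the deletion. Capitals mark every CANNTG, a motif that reads the same on both strands and includes CAGCTG. The windows are chr7:143052500-143052799 (plus strand) for Cd81, chr7:143473539-143473838 (plus strand) for Slc22a18, chr7:143502475-143502774 (minus strand) for Phlda2 and chr7:142657447-142657746 (minus strand) for the Igf2 start nearest to the gene's end.
Cd81: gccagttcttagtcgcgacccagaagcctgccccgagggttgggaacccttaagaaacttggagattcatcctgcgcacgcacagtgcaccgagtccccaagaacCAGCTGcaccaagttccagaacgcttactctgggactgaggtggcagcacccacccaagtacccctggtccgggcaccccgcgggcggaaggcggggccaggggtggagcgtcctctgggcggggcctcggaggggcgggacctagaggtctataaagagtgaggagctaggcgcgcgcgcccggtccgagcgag
Slc22a18: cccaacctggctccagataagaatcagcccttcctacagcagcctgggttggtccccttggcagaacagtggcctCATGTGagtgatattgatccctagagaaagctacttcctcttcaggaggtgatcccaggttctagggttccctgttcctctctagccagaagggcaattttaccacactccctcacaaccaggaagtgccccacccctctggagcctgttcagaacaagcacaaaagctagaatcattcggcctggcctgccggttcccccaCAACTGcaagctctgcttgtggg
Phlda2: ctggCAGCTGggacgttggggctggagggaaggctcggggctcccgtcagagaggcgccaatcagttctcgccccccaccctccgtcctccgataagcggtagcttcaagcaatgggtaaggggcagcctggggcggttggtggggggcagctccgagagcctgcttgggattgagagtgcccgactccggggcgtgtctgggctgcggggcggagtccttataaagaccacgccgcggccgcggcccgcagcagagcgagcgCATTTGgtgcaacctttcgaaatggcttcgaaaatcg
Igf2: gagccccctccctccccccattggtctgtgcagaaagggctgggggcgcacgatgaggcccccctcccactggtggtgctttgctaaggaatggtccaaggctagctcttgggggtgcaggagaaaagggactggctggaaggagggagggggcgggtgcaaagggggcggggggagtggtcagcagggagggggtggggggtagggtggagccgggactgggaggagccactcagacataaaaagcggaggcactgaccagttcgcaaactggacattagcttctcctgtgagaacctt

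Counting from the start site, CAGCTG began at -145 in Cd81 and at -246 in Phlda2. Slc22a18 held CATGTG at -175 and CAACTG at 28, and Phlda2 also held CATTTG at 14. The printed Igf2 window held no match, and of the 3 other Igf2 windows 1 held 1 match and 1 held 2. Over all 32851 windows of the table, 72.3% held at least 1 CANNTG and 16.3% at least 1 CAGCTG, so a match was the usual case. The Cd81, Tssc4 and Phlda2 windows held 23, 23 and 26 CpG dinucleotides, against a median of 7 over all windows, while the Slc22a18 and Tspan32 windows held 2 each. A share of 26.5% of all windows held at least 20. These letters are a description of the windows, and binding or methylation was not measured.

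By the probe positions in the files, which are on build mm8, the members lay from chr7:142385254 to chr7:143338817. Relative to the Ascl2 probe (chr7:142777924-142777983, minus strand), the H19 probes lay -393 and -392 kb away and the Igf2 probes -318 and -317 kb away. On the other side came Tspan32 (47.1 and 50.6 kb), Cd81 (99.3 kb), Tssc4 (102 kb), Kcnq1 (458 kb), Cdkn1c (490 kb), Slc22a18 (531 and 508 kb), Phlda2 (533 kb for both) and Nap1l4 (545, 546 and 559 kb). Exons and untranslated parts were not assigned, since no annotation of that build was used here. A second probe filed under Kcnq1 lay on the minus strand, opposite to the gene, 289 kb from Ascl2, and was not well above background on any array. The Phlda2 probes overlap in position (chr7:143310959-143311018 and chr7:143310949-143311008), so they are not independent measures of the gene. Where a gene has several probes, they are numbered in the order of their names, and probe 1 of Igf2 (chr7:142460185-142460245) was printed as 10 spots on every array.

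A probe was tested in a comparison where it was well above background on all 4 arrays in at least 1 of the RNAs. Between 35.1% and 44.5% of probes were well above background per RNA on the sort arrays, and between 54.6% and 66.4% on the deletion arrays. Over 23410 probes the 2 arrays of a dye swap correlated at 0.41 in both sorts, at 0.86 on day 3 and at 0.84 on day 5. Each RNA pair was alone on its slide and scan, and the pair and the slide cannot be told apart. Ascl2, the deleted gene, had log2 ratios of deleted over control of -1.36 and -1.30 on day 3 and of -1.34 and -1.73 on day 5, all below 0. Its log2 ratios of GFPhi over GFPlo were 0.45 and 0.27 in sort 1 and 0.63 and 0.96 in sort 2, all above 0. Without a limit set on the local background of single spots with a bright halo, its sort 2 mean was 0.36 in place of 0.79. All 7 epithelial markers were well above background in every RNA on all its arrays, and none of 5 endothelial markers was so in any RNA.

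The sorts ask which neighbours differ between Lgr5-high cells, which include the stem cells, and their GFPlo companions. Kcnq1 and Cd81 were higher in GFPhi cells, and Cdkn1c and the first Slc22a18 probe were lower, each on all 4 arrays. Of the 9 member probes tested, 6 had 1 sign on all 4 arrays (2 higher, 4 lower), where 32.2% of all probes tested did (16.7% higher and 15.5% lower). None of the 9 passed an adjusted p of 0.05 in limma's fit over all 4 RNA pairs, and none of the 14489 probes tested did (0%). Ascl2, at a mean of 0.58, had an adjusted p of 0.39 in that fit. At an unadjusted p under 0.05 stood 4 of the 9 and 1400 of all, or 9.66%. That fit takes its spread from the sorts and the deletion days together. With the sorts fitted alone, 2374 probes passed (16.4%, with 8.74% higher and 7.64% lower), among them 5 member probes, 2 higher and 3 lower, and both adjusted p-values are given below.

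Cdkn1c encodes p57, an inhibitor of cyclin-dependent kinases that holds cells out of division. Its log2 ratios of GFPhi over GFPlo were -0.72 and -1.02 in sort 1 and -1.21 and -1.06 in sort 2. All 4 arrays put it lower in GFPhi cells, by 2.01-fold on average (mean log2 ratio -1.004 ± 0.19, SD, n = 2 sorts). In limma's joint fit over all 4 RNA pairs its SE was 0.13 and its adjusted p 0.27. With the sorts fitted alone they were 0.086 and 0.00027. Before loess, the local background of single spots with a bright halo was limited to the array's typical background, and without that step its sort 2 mean was -0.33 in place of -1.14. Enteroendocrine markers moved in the same direction: 4 of 6 were tested, all 4 were lower in GFPhi cells on every array, and their median log2 ratio was -2.11. Over the 6 markers the mean log2 level was 9.24 and 8.90 in GFPhi and 10.3 and 10.5 in GFPlo cells of sorts 1 and 2. Their part in the Cdkn1c difference was not tested.

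Kcnq1 encodes the pore subunit of a voltage-gated potassium channel that works in epithelial salt transport. Its log2 ratios were 0.76 and 0.66 in sort 1 and 0.91 and 0.42 in sort 2, higher in GFPhi cells on each array. The mean was 0.69 ± 0.03 (SD, n = 2 sorts), or 1.61-fold, with an adjusted p of 0.30 in the joint fit and 0.00071 with the sorts alone. Cd81 encodes a tetraspanin, a membrane protein that organises receptor complexes. It gave 0.38 and 0.61 in sort 1 and 0.48 on both arrays of sort 2, again above 0 throughout. Its mean was 0.49 ± 0.01 (SD, n = 2 sorts), with adjusted p-values of 0.36 and 0.0034.

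Slc22a18 encodes a membrane transporter of the organic cation family. Its first probe gave -0.44 and -0.71 in sort 1 and -0.50 and -0.69 in sort 2, lower in GFPhi cells on each array. The mean was -0.58 ± 0.01 (SD, n = 2 sorts), with an adjusted p of 0.28 in the joint fit and 0.0015 with the sorts alone. The second probe, assigned to the same transcript, had 1 sign as well but a mean of only -0.13 and an adjusted p of 0.31 with the sorts alone, so the probes of this gene differed in size. Phlda2 encodes a small pleckstrin-homology protein that limits placental growth. Its first probe gave -0.31 and -0.21 in sort 1 and -0.50 and -0.34 in sort 2, and was well above background on 4 GFPlo but 2 GFPhi arrays. The adjusted p was 0.87 in the joint fit and 0.021 with the sorts alone, and without the limit on local background its sort 2 mean was -0.04 in place of -0.42. Its second probe was too dim to test.

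The other members had sort ratios near 0 or were too dim. Tssc4, which encodes a protein of the splicing machinery, had ratios of both signs, from -0.40 to 0.29. Its mean was -0.02, with a 95% interval from -0.41 to 0.37 in the joint fit. Nap1l4 encodes a histone chaperone of the nucleosome assembly family. The means of its tested probes were 0.02 (interval -0.42 to 0.47) and 0.10 (interval -0.27 to 0.47). Both upper limits lay just under the mean of Cd81, 0.49, but the interval of Cd81, 0.21 to 0.76, overlapped both. Igf2, H19 and Tspan32, a tetraspanin of blood cells, were not well above background on all 4 arrays of GFPhi or GFPlo cells and were not tested there. Their array ratios ran from -0.24 to 0.20.

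**Figure D1:**
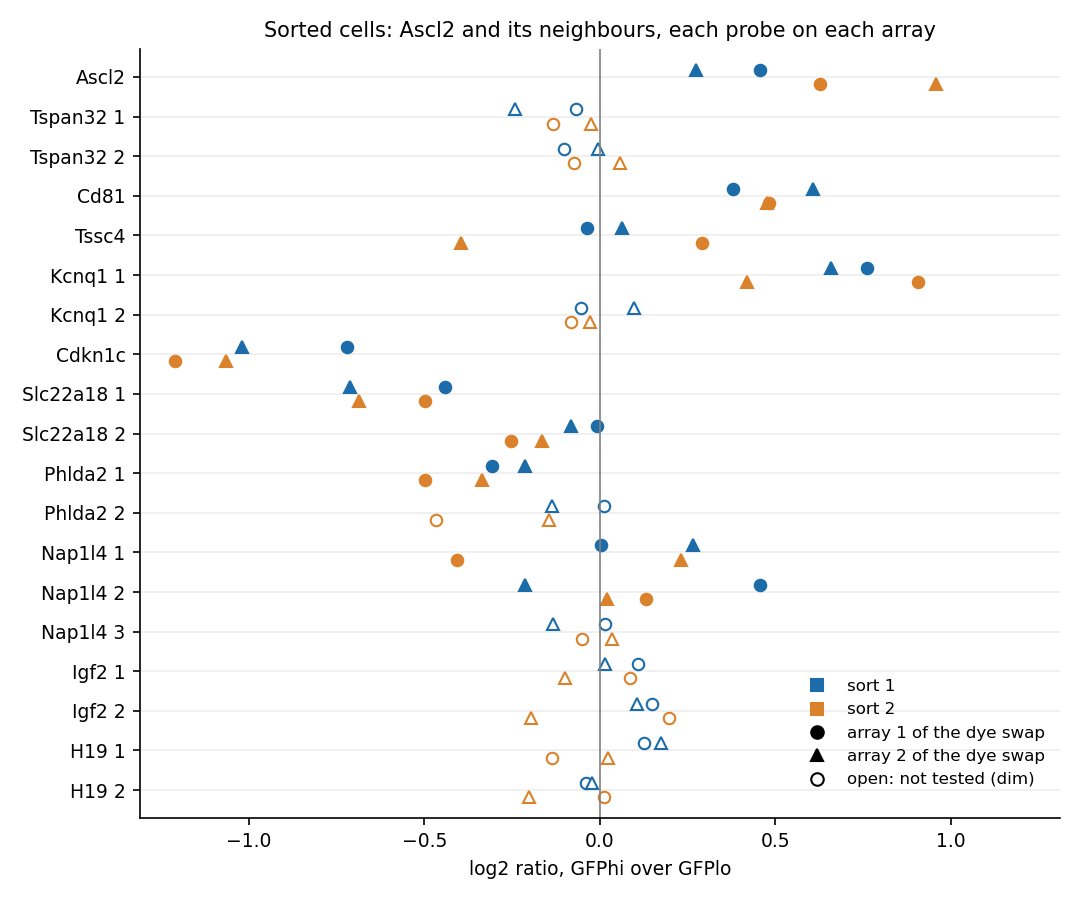
Log2 ratio of GFPhi over GFPlo (horizontal axis) for Ascl2 and each member probe, 1 row a probe, on each of 4 arrays; colours are sorts, shapes the arrays of a dye swap, and open symbols are probes too dim to test. Kcnq1 probe 1 and Cd81 lie right of 0 on all 4 arrays, and Cdkn1c and Slc22a18 probe 1 lie left of 0, Cdkn1c at -0.72 to -1.21.

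The deletion asks which neighbours differ once Ascl2 is removed. Igf2 was higher in the deleted RNA 3 days after induction and close to the control at 5 days, while Phlda2 was lower at 3 days and higher at 5 days. Of the 16 member probes tested over both days, 4 had 1 sign on all 4 arrays, both Igf2 probes higher and Kcnq1 and Cdkn1c lower, where 25.5% of all 23127 probes tested did (13.1% higher and 12.4% lower). None of the 16, and none of all probes (0%), passed an adjusted p of 0.05 in limma's fit of both days together. Ascl2, the deleted gene, did not pass in that fit either, at a mean of -1.43 (adjusted p = 0.28). Missing this threshold therefore does not show that a gene was unchanged. At an unadjusted p under 0.05 stood 1 member probe, Kcnq1, and 2145 of all probes (9.27%). Each day had a single RNA pair, so the day values have no replicate. The spread of that fit includes the difference between the days and the spread of the sorts.

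Igf2 probe 1 had log2 ratios of 1.87 and 1.59 on day 3 and of 0.07 and 0.30 on day 5. The day 3 arrays stood far above the day 5 arrays, with a mean of 1.73 or 3.31-fold against 0.18 or 1.14-fold. The spots of this probe agreed closely: on day 3 the SD between spots was 0.05 over 9 spots on 1 array and 0.03 over 10 spots on the other, and the lowest spot was at 1.53. All 10 spots were well above background in both RNAs on each deletion array. Probe 2 of the same gene gave 1.19 and 1.11 on day 3 and 0.14 and 0.19 on day 5, in the same order but smaller. Its signal was dimmer, and with the processed signals of the scanner software, which add no offset, the probes had nearly equal day 3 means of 1.99 and 1.93.

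The level of Igf2 probe 1 on the log2 intensity scale was 7.25 and 7.30 in the controls of days 3 and 5, 8.97 in the deleted RNA of day 3 and 7.49 in that of day 5. The deleted RNA of day 3 stood apart from the other deletion RNAs, which lay within a narrow band. In the sorted cells the levels were 6.84 to 6.96, and the probe was not well above background on all arrays there. At least 2-fold higher on both day 3 arrays were 342 of all probes tested (1.48%), and both Igf2 probes were among them. Within 1.5-fold on both day 5 arrays as well were 211 (0.912%), again with both Igf2 probes. Over both days the mean of probe 1 was 0.96 ± 1.09 and that of probe 2 was 0.66 ± 0.69 (SD, n = 2 RNA pairs). In limma's joint fit the SEs were 0.38 and 0.25 and the adjusted p-values 0.54 and 0.53. Those SEs draw part of their spread from the sorts, where Igf2 was too dim to test, so they understate the spread between the days.

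H19, which shares its imprinting centre with Igf2, had ratios near 0 on both days. For probe 1 the day 3 arrays gave -0.10 and 0.06 and the day 5 arrays 0.17 and -0.05. For probe 2 they gave -0.17 and -0.08 (day 3) and -0.07 and 0.04 (day 5). In the joint fit, the 95% intervals over both days ran from -0.26 to 0.30 and from -0.32 to 0.18. Those of Igf2 over both days, -0.06 to 1.97 and -0.02 to 1.33, overlapped them. These intervals draw part of their spread from the sorts, where both genes were too dim to test. Both H19 probes were well above background on all 4 deletion arrays in both RNAs, though dim.

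**Figure D2:**
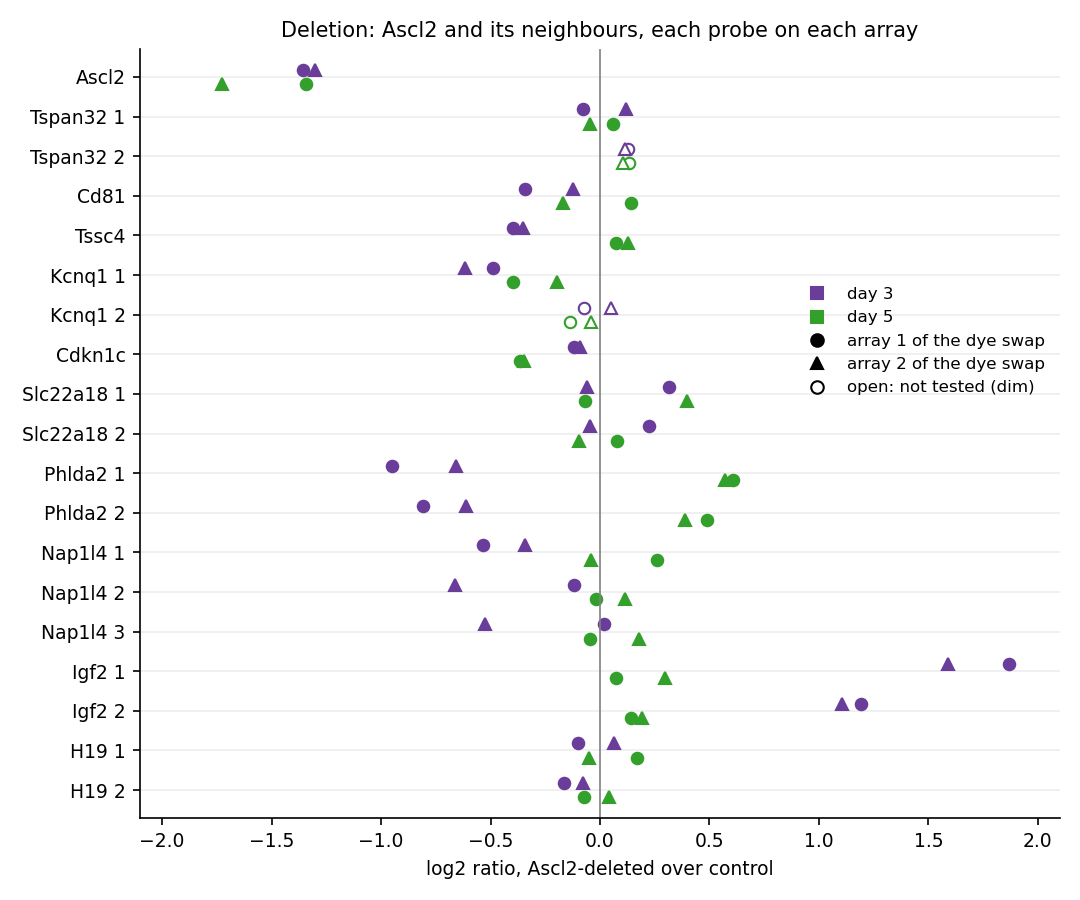
Log2 ratio of Ascl2-deleted over control RNA (horizontal axis) for Ascl2 and each member probe on each of 4 arrays; colours are days after induction, shapes the arrays of a dye swap, and open symbols are probes too dim to test. Ascl2 lies between -1.30 and -1.73 on both days, the Igf2 probes lie between 1.11 and 1.87 on day 3 and between 0.07 and 0.30 on day 5, and the Phlda2 probes change side between the days.

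Phlda2 probe 1 had log2 ratios of -0.95 and -0.66 on day 3 and of 0.61 and 0.57 on day 5. Both arrays of day 3 were below 0 and both of day 5 above it, with means of -0.80 and 0.59. Its level was 9.06 in the control and 8.26 in the deleted RNA of day 3, and 8.15 in the control and 8.75 in the deleted RNA of day 5, so the controls differed between the days by about as much as the deleted RNA from its control. Probe 2 gave -0.81 and -0.61 on day 3 and 0.49 and 0.39 on day 5. Signs that were opposite between the days on all 4 arrays were found for 3 of the 16 member probes, the Phlda2 probes and Tssc4, and for 28.4% of all probes tested.

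Cdkn1c had ratios of -0.12 and -0.09 on day 3 and of -0.36 and -0.35 on day 5, slightly below 0 on all 4 arrays. Its mean over n = 2 RNA pairs was -0.23 (SE 0.13 and adjusted p = 0.58 in limma's joint fit). Kcnq1 gave -0.49 and -0.62 on day 3 and -0.40 and -0.20 on day 5, lower in the deleted RNA on each array. Its mean over n = 2 RNA pairs was -0.42, or 1.34-fold lower (SE 0.11 and adjusted p = 0.45 in limma's joint fit). Its control level was 11.3 on day 3 and 12.3 on day 5, so the controls differed by more than the deleted RNA from its control. Kcnq1 thus was higher in GFPhi cells and lower after the deletion on all arrays, as was Ascl2, and so were 540 of 14206 probes tested in both comparisons (3.8%). Cdkn1c was lower on all arrays of both, as were 214 probes (1.51%). The 5 crypt base stem cell markers, Ascl2 among them, had the pattern of Kcnq1, all 5 higher in GFPhi cells and lower after the deletion on every array, with medians of 0.73 and -0.74. Their part in the Kcnq1 ratios was not tested.

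Of the remaining members, Nap1l4 probes 1 and 2 and Tssc4 had day 3 means of -0.44, -0.39 and -0.38, where Kcnq1 had -0.55. Their day 5 means were smaller in size. Cd81 gave -0.34 and -0.12 on day 3 and 0.14 and -0.17 on day 5, and its interval over both days ran from -0.40 to 0.15. Slc22a18 probe 1 gave 0.32 and -0.06 on day 3 and -0.07 and 0.40 on day 5, so the dye-swapped arrays differed in sign on either day. Nap1l4 probe 1 gave -0.54 and -0.34 on day 3 and 0.26 and -0.04 on day 5, and its other probes had day 3 means of -0.39 and -0.25 and day 5 means of 0.05 and 0.07. Tssc4 gave -0.40 and -0.35 on day 3 and 0.07 and 0.13 on day 5. Tspan32 probe 1 had means of 0.02 and 0.01, and probe 2 was too dim to test, with ratios from 0.11 to 0.13.

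**Figure D3:**
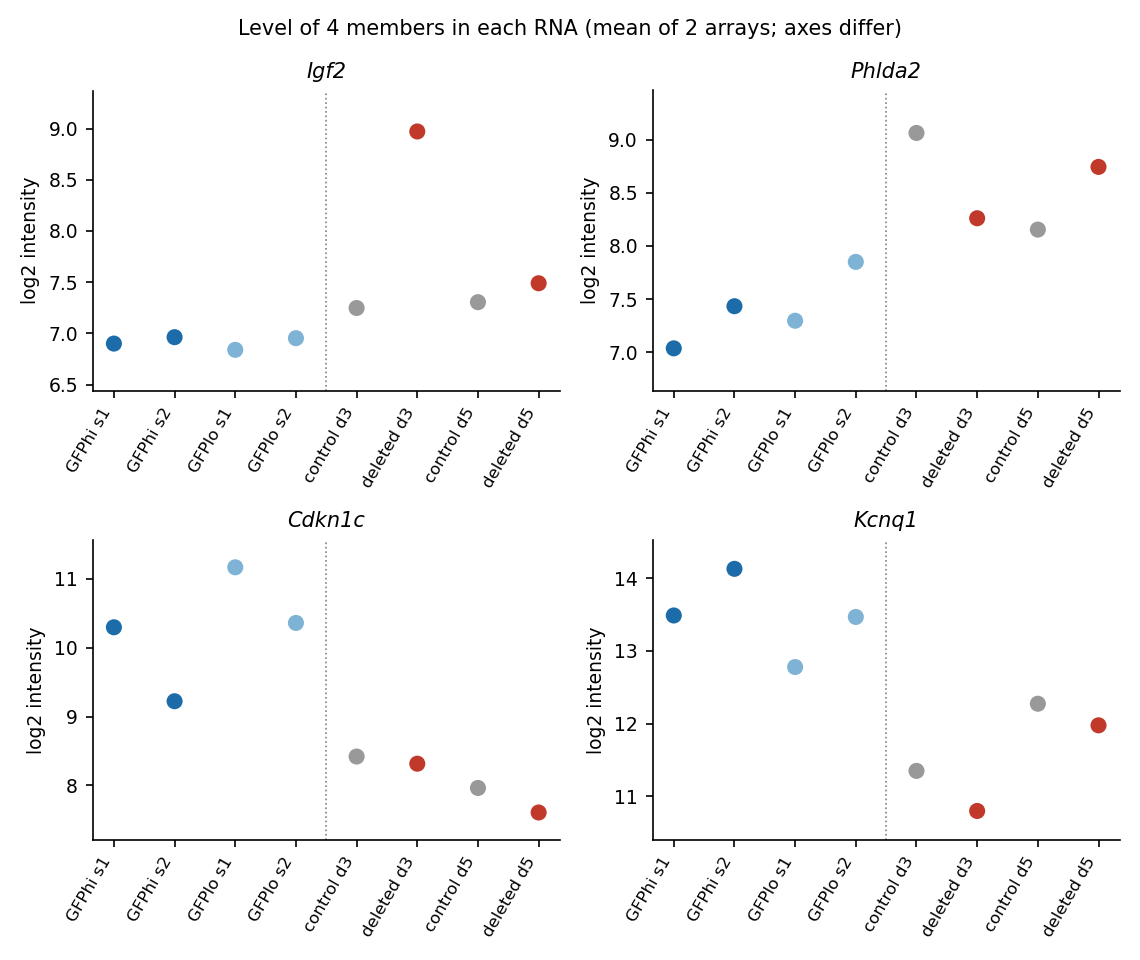
Level of 4 members on the log2 intensity scale (vertical axes, which differ) in each of 8 RNAs, each point the mean of 2 arrays; s1 and s2 are sorts, d3 and d5 days. Igf2 probe 1 is at 8.97 in the deleted RNA of day 3 and at 7.25 to 7.49 in the other deletion RNAs, and Cdkn1c probe levels are lower in GFPhi than in GFPlo cells of the same sort.

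The difference between the days was tested in a fit with a term for each day, whose spread comes from the sorts alone. Of the 16 member probes, 6 passed an adjusted p of 0.05 in limma, and of all 23127 probes 6705 did (29%, with 16.9% higher and 12.1% lower on day 5). At an unadjusted p under 0.05 stood 7 of the members and 40% of all probes. The deleted-over-control ratio of Igf2 fell from day 3 to day 5, by 1.54 on the log2 scale in probe 1 (SE 0.15, adjusted p = 0.00023) and by 0.98 in probe 2 (SE 0.15, adjusted p = 0.0023). That of Phlda2 rose, by 1.39 in probe 1 (SE 0.16, adjusted p = 0.00051) and 1.15 in probe 2 (SE 0.17, adjusted p = 0.0018). Those of Nap1l4 probe 1 and Tssc4 rose by 0.55 (adjusted p = 0.037) and 0.48 (adjusted p = 0.042). The other Nap1l4 probes, at 0.44 and 0.32, did not pass (adjusted p = 0.054 and 0.14), and Kcnq1 (0.25) and Cdkn1c (-0.25) had adjusted p-values of 0.24 and 0.32.

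These calls have several limits. Each day had 1 RNA pair, so the spread between deletion RNA pairs of the same day was not measured for any of the 6 probes. The test stands on 1 residual degree of freedom from the sorts, in which Igf2 and Phlda2 probe 2 were too dim to test, so their spread at the brightness of the deletion arrays was not measured. On the scanner's processed signals all 6 kept their direction but none passed (adjusted p from 0.14 to 0.51 over the 6 probes), and 51 of all probes passed.

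Markers of other cell types also differed between the days. Of 9 fibroblast and smooth muscle markers 7 were tested, and their median log2 ratio was -0.31 on day 3 and 4.59 on day 5. Over the 9 markers the mean log2 level was 8.16 in the control and 7.87 in the deleted RNA of day 3, and 7.30 in the control and 10.1 in the deleted RNA of day 5. Des, the intermediate filament of muscle, was not well above background on any array. Acta2, from the same list, was tested and had day means of only 0.11 and 0.18, so the day 5 median did not hold for every marker. All 6 T cell markers were tested, and their median log2 ratio was 0.94 on day 3 and -0.06 on day 5. Their mean level was 8.57 in the control and 9.33 in the deleted RNA of day 3, and 9.38 and 9.28 in those of day 5. Among the deletion RNAs the T cell level was lowest in the day 3 control, and the day 3 means of the 6 markers ran from 0.08 to 1.28. The part of other cell types in the Igf2 and Phlda2 ratios was not tested, and in RNA of mixed cells a change in the share of a cell type and in the RNA per cell cannot be told apart.

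**Figure D4:**
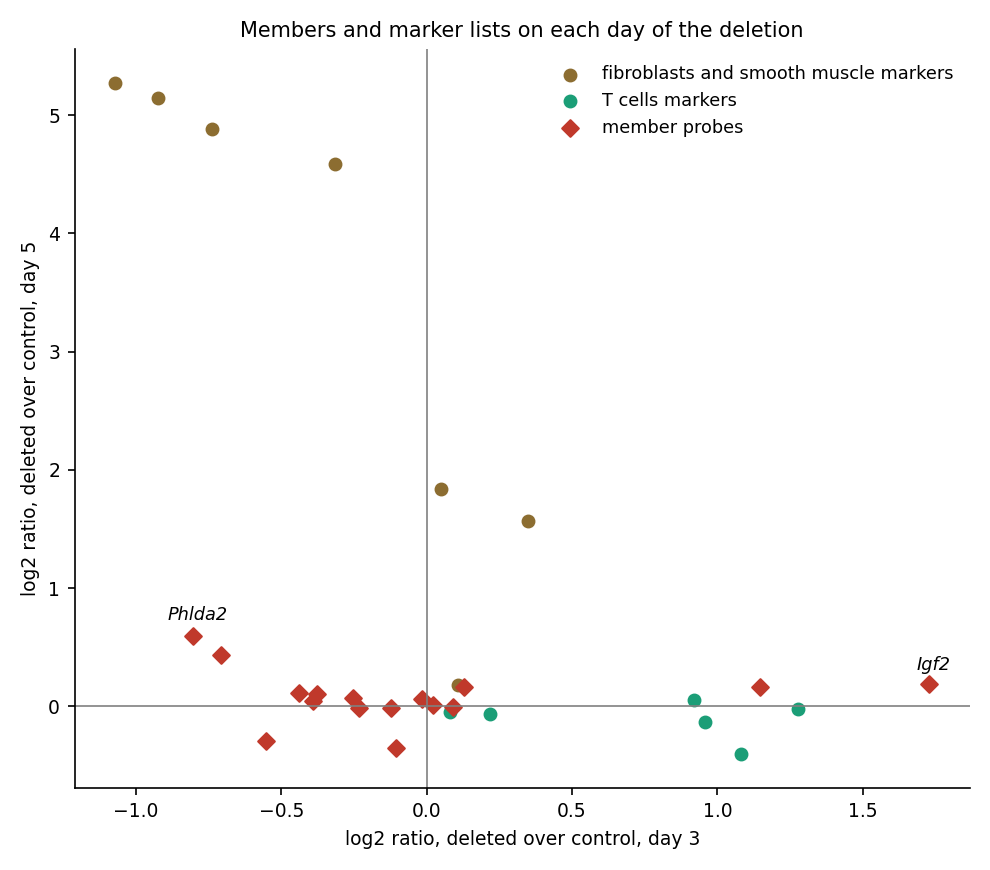
Mean log2 ratio of deleted over control RNA on day 3 (horizontal axis) and day 5 (vertical axis), each point 1 probe tested in that comparison, for member probes and 2 lists of cell type markers. The Igf2 probes lie at the right, at 1.73 and 1.15 on day 3, and the fibroblast markers lie up to 5.27 on day 5.

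Igf2 acts through the receptor Igf1r, is cleared by Igf2r and is held by binding proteins. Of 16 genes of that pathway 15 were on the array, 7 were tested in the deletion and 4 in the sorts, and none passed an adjusted p of 0.05 in limma in either comparison. The deletion median was 0.03 over the 7, against 0.00 over all 16317 genes tested. Igfbp7 gave 0.11 and 0.23 on day 3 and 2.66 and 2.75 on day 5. Igfbp6, another binding protein, had day means of 0.21 and 1.87. Of the 7 fibroblast and smooth muscle markers tested, 6 were also higher on day 5 in limma's day test. Their part in these ratios was not tested. Igf1r gave -1.24 and -1.12 on day 3 and -0.03 and 0.30 on day 5, with a sign opposite to that of Igf2 on day 3. Igf2bp3, which binds Igf2 RNA, was below 0 on both days, at means of -0.87 and -0.44. Between the days 4 of the 7 passed (Igfbp6, Igfbp7 and Igf1r higher on day 5 and Igf2r lower), or 57.1%, where 30.8% of all genes did. In the sorts the highest was the binding protein Igfbp4, at a mean of 0.68 with an adjusted p of 0.39.

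Of 27 relatives and partners of the members, 18 were tested in the deletion and 14 in the sorts, and none passed there in limma. Between the days 10 of 18 passed (55.6%, against 30.8% of all genes), 6 higher and 4 lower on day 5. Kcne3, the subunit that keeps the Kcnq1 channel open in intestinal cells, gave -1.50 and -1.40 on day 3 and 0.31 and 0.23 on day 5. Its partner Kcnq1 was below 0 on both days. Nap1l1, the relative of Nap1l4, had day means of -0.94 and 0.02, the order seen in Nap1l4 probe 1. Cdkn1a, a kinase inhibitor like Cdkn1c, had day means of 0.82 and 0.05, and a sort mean of -0.72 with 1 sign on all 4 arrays. Phlda1, of the family of Phlda2, was on the other side in the sorts, at a mean of 0.87 with an adjusted p of 0.28.

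Other imprinted genes gave a comparison for the members. Of 35 such genes, among them Dhcr7, which lies 880 kb from Ascl2 and is counted among the genes within 1 Mb as well, 32 were on the array and 22 were tested in the deletion, with a median of 0.04 and no gene past an adjusted p of 0.05 in limma. On all 4 arrays 7 of the 22 were higher (31.8%, against 13.2% of all genes) and 1 was lower (4.55%, against 12.8%). Sgce gave -0.07 and -0.05 on day 3 and 1.45 and 1.64 on day 5. Snrpn was below 0 on all 4 arrays, at a mean of -0.49, and Zrsr1 was above 0 on all 4, at a mean of 0.38. Between the days 6 of the 22 passed, among them Sgce and Ppp1r9a, and this share of 27.3% was near the 30.8% of all genes. In the sorts 10 were tested, with a median of 0.04 and the largest mean, 0.44, in Ppp1r9a.

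Within 1 Mb of Ascl2 lay 42 other named genes or transcripts, of which 23 were tested in the deletion and 16 in the sorts. Their medians were 0.02 and -0.06, and none passed an adjusted p of 0.05 in limma in either. In the sorts 1 of the 16 was higher (6.25%, against 17.3% of all genes) and 4 were lower (25%, against 16.4%) on all 4 arrays, with the largest mean, -0.63, in Osbpl5, a lipid-transfer protein gene 720 kb from Ascl2. In the deletion 3 of the 23 were higher (13%, against 13.2% of all genes) and 4 lower (17.4%, against 12.8%) on all 4 arrays, the largest mean being 0.39 in Lsp1, a gene of white blood cells. Trpm5, a channel of tuft cells 103 kb from Ascl2, gave 0.998 and 1.11 on day 3 and -0.41 and -0.59 on day 5. Between the days 6 of 23 passed (26.1%), and of the members by their brightest probes 4 of 10 (40%), where 30.8% of all genes did, so neither count is a result about its list. The members nearest to Ascl2, Tspan32 probe 1, Cd81 and Tssc4, had day 3 means of 0.02, -0.23 and -0.38. Members farther away had day 3 means from -0.80 (Phlda2 probe 1) to 1.73 (Igf2 probe 1). Between these lay H19 (-0.02 and -0.12), Cdkn1c (-0.10), Slc22a18 (0.13 and 0.09), Kcnq1 probe 1 (-0.55) and Nap1l4. A link with distance was not tested.

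**Figure D5:**
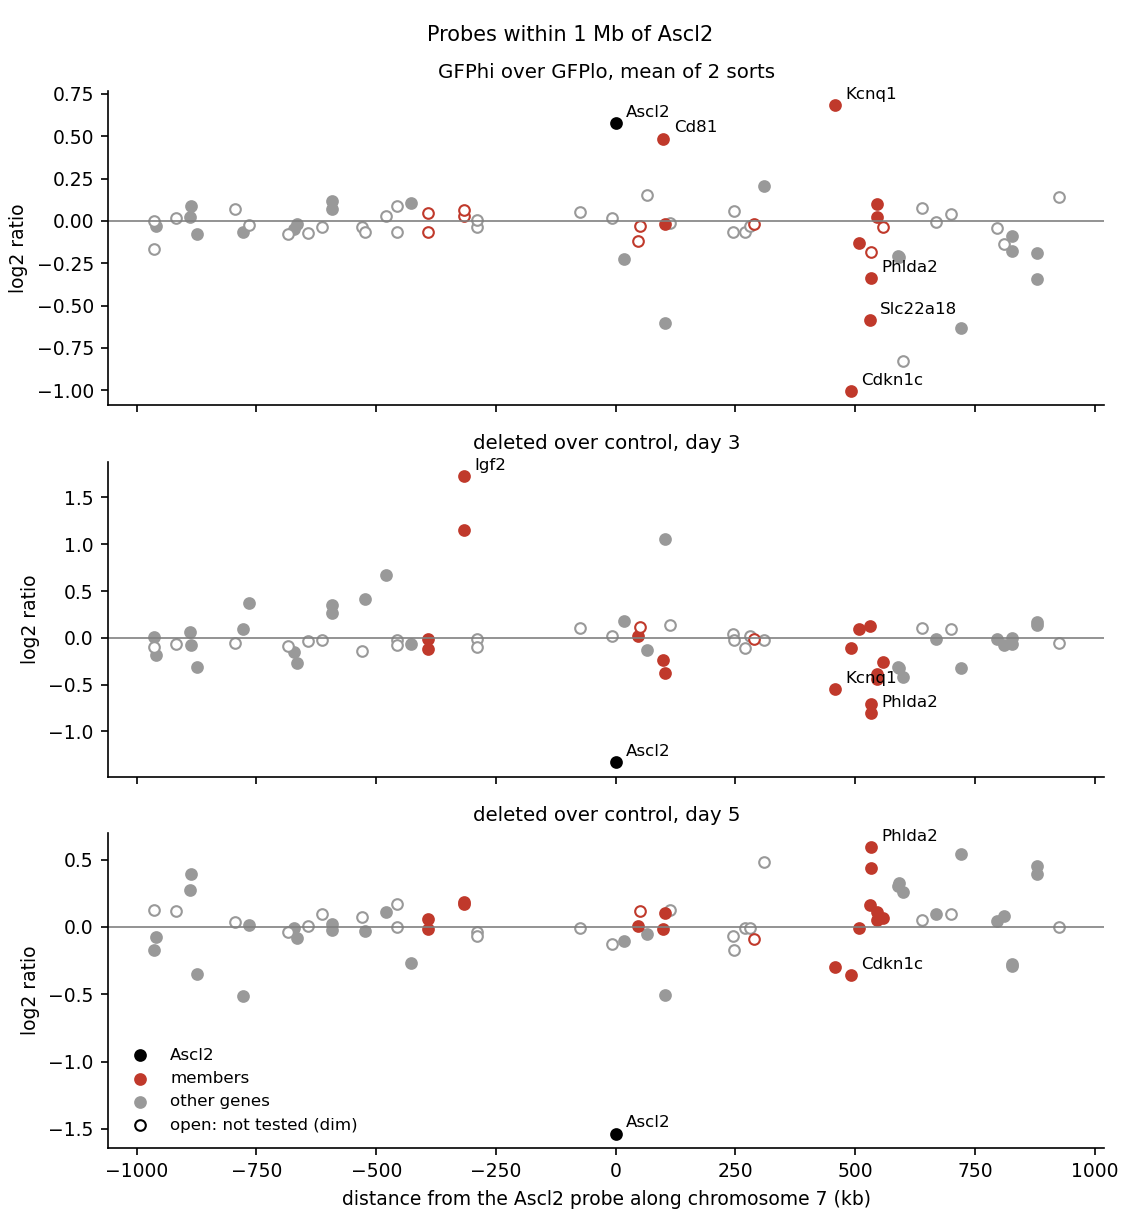
Mean log2 ratio of each probe within 1 Mb of Ascl2 (vertical axes) against its distance from the Ascl2 probe in kb (horizontal axis), for the sorts, day 3 and day 5; black is Ascl2, red the members, grey other genes, and open symbols are probes too dim to test. Igf2 at -318 kb reaches 1.73 on day 3, and Phlda2 at 533 kb moves from -0.80 on day 3 to 0.59 on day 5.

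By the mean absolute log2 ratio over the 4 RNA pairs, Cdkn1c ranked first among member probes well above background on all 8 arrays in both RNAs, through its sort ratios. Its 4 pair means were -0.87 and -1.14 in the sorts and -0.10 and -0.36 on days 3 and 5. Among 11234 probes of named genes, the nearest to it by Euclidean distance over the 4 RNA pairs were Creb3l4 (distance 0.33), Fxyd6 (0.38), Cgref1 (0.39), Gsta1 (0.42) and Bex2 (0.47), where the median probe was 1.56 away. Creb3l4 had sort means of -0.99 and -0.89 and day means of -0.27 and -0.30. With 4 points the likeness is a description.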

How the data were processed

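Scanner files of 8 two-colour arrays were used. They hold, per the file headers, mean foreground and median local background intensity values on a linear scale from Agilent Feature Extraction, its processed intensities, and the log10 ratio of its red and green channels. Log2 ratios of the same arrays, with GFPhi or deleted RNA on top, stand in the series matrix that the authors deposited. Its column medians ran from -0.02 to 0.03, and the sources used here do not say whether it was centred. RNA was isolated with Trizol and amplified, per the labels' protocols.

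Intensities were corrected with normexp (offset 50) and loess in limma 3.58.1 (R 4.3.3), control spots having weight 0 and spots with an outlier mark left out. On the sort 2 arrays, 27 to 75 spots per channel with very high local background drove the normexp fit and flattened dim ratios. A spot's background was therefore limited to the array median where it exceeded 2 times that median. This step was chosen after seeing the data, and the version without it is an alternative. The offset makes ratios of dim probes smaller. Dye-swapped arrays share both RNAs and were averaged, giving 4 RNA pairs. Levels are log2 intensities after between-array scaling and were compared within a probe. The sorts and the deletion were fitted together (lmFit, eBayes), the days in a fit with a term each, and p-values were adjusted by Benjamini-Hochberg over all probes tested. The methods were tested on simulated data. The labels do not say whether the deletion RNAs of the 2 days came from separate litters, and p-values measure only the spread between these RNA pairs.

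Probe names come from the day 3 files by feature number, 23483 of the 41174 probes being named by accession through RefSeq's gene table. Lists used the brightest probe of a gene. Ascl2, every member probe and, from each list, up to 4 genes with the largest mean ratio among probes well above background throughout in either comparison were named. Des and Acta2 were named after their values were seen. The members and lists were chosen with earlier results of these data known. Alternatives were the background correction, the scanner's processed signals, median centring, the series matrix, outlier marks, the signal filter, sorts or days fitted alone, RNA pair as a random block, each RNA pair left out, and 1 probe per gene.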

Additional observations from a re-analysis of the deposited data

Results flagged for a closer look

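For 6 member probes the deleted-over-control log2 ratio differed between day 3 and day 5 by limma's test of that difference. That test takes its spread from the sorts alone. Each day had a single RNA pair, so the spread between deletion RNA pairs of the same day was not measured. Day 5 minus day 3 was 1.39 for Phlda2 probe 1, 1.15 for its probe 2, 0.48 for Tssc4 and 0.55 for Nap1l4 probe 1. It was -1.54 for Igf2 probe 1 and -0.98 for its probe 2. The adjusted p-values ran from 0.00023 for Igf2 probe 1 to 0.042 for Tssc4. Of all probes tested 29% passed the same test.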

How the results depend on the processing

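No probe passed in the sorts or in the deletion under most alternatives. In the sorts, 1 passed on the scanner's processed signals, 32 on the series matrix, 273 with the RNA pair as a random block (Cdkn1c and Kcnq1 probe 1 among them) and 2374 with the sorts fitted alone. Leaving out 1 RNA pair gave 0 to 2374, the latter without either day of the deletion, which leaves the spread to the sorts. In the deletion, 1 passed on processed signals and 455 with the random block, no member among them, and leaving out 1 pair gave 0 (without either sort) to 8622 (without day 5), with 2744 without day 3. For the difference between the days, 51 passed on processed signals, 866 on the series matrix and 2085 with median centring, against 6705. Of the 6 member probes 4 passed with median centring, and none on processed signals or the series matrix, which has no sort values for Igf2 and Phlda2. Leaving out a sort could not be fitted there, since no residual degree of freedom remains. The cause of the other shifts was not tested.

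Signs turned for ratios near 0 or with the days split. In the sorts, Tssc4 was 0.031 on processed signals and ran from -0.052 (without sort 1) to 0.012 (without sort 2), and Nap1l4 probe 1 was -0.015 with median centring and ran from -0.088 (without sort 1) to 0.134 (without sort 2). In the deletion, the values without day 5 and without day 3 were -0.80 and 0.59 for Phlda2 probe 1, -0.71 and 0.44 for its probe 2, -0.38 and 0.10 for Tssc4, -0.44 and 0.11, -0.39 and 0.049, and -0.25 and 0.067 for Nap1l4 probes 1 to 3, 0.090 and -0.0089 for Slc22a18 probe 2, and -0.017 and 0.060 for H19 probe 1. Slc22a18 probe 2 was -0.023 with median centring and H19 probe 1 -0.022 on processed signals. Between the days, Ascl2 was 0.012 without the limit on local background, Slc22a18 probe 2 0.12 with median centring and H19 probe 1 -1.3e-05 on processed signals. No paired analysis was possible because the groups share fewer than 2 replicate numbers and each array already pairs its RNAs. Signal over background limits Igf2, H19, Tspan32 and Phlda2 in the sorts.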
